A study of Mus musculus with 30 samples.

Results

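Integrins are receptors of the cell surface, each made of an α and a β subunit, which hold cells to the extracellular matrix and pass signals through their short cytoplasmic tails. The β1 subunit pairs with the largest number of α subunits, which set the ligand: α1 and α2 bind collagens, α3 and α6 bind laminins, α5 binds fibronectin and α8 binds nephronectin and other matrix proteins with an RGD sequence. In the intestine, α6β4 anchors the epithelium to its basement membrane, β6 pairs with αv in epithelial cells, and α1, α5 and α8 are known from smooth muscle and other cells of the stroma. The 10 genes described here are 7 α subunits (Itga1, Itga2, Itga3, Itga5, Itga6, Itga8 and Itgav) and 3 β subunits (Itgb1, Itgb4 and Itgb6), picked by name out of the 46078 genes in the count table.

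The study asked how sex, a high-fat diet (HFD) and estradiol (E2), the main estrogen, change gene expression in the mouse colon, and measured it by RNA-seq in 30 C57BL/6J mice in 5 groups of 6. CD F and CD M were females and males on a control diet with 10% of its energy from fat, and HFD F and HFD M were females and males on a diet with 60% of its energy from fat, each given for 13 weeks from an age of 5 to 6 weeks. These 4 groups received vehicle. HFD+E2 M were males on the high-fat diet that received E2 at 0.5 mg per kg body weight in the last 3 weeks, and every mouse had 9 intraperitoneal injections in that time. The females kept their ovaries, and no group of females was given E2. RNA came from snap-frozen colon, a mixture of cell types, so that fewer cells of a type and less RNA per cell cannot be told apart.

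The libraries held 8667177 to 17243712 counts, with a median of 11530915. The tissue label was checked with 10 genes of colon epithelium, whose summed level lay between 3227 and 6001 TPM (a level scaled to gene length and library size) in all 30 libraries, although Cdx2, a transcription factor of intestinal epithelium, was listed at 0 TPM in 10 of them. In 6 libraries, 4 of HFD F and 2 of HFD M, genes of stratified squamous epithelium, which does not line the colon, had a mean log2 CPM (counts scaled to library size) of 2.28 to 6.02, against at most 0.20 in the other libraries. The summed level of 12 smooth muscle genes ran from 3117 to 4682 TPM in CD F and from 4807 to 8006 TPM in CD M. These groups did not overlap on this scale. In the mean log2 CPM of the 12 genes they did, at 8.03 to 8.81 in CD F and 8.46 to 9.35 in CD M.

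Each of the 10 genes was expressed in every library, from 97 counts for Itga2 in its lowest library to 7613 for Itgb1 in its highest, and all 10 entered every test. On the TPM scale Itgb1, the shared partner of most α subunits, was highest with a mean of 150.2 TPM over the 30 libraries (108 to 202 TPM). Itga6 followed at 89.3 TPM, then Itgb4 at 40.1, Itga1 at 30.5 and Itga3 at 26.1 TPM. Itgav at 20.05 TPM, Itga5 at 18.1 and Itgb6 at 17.1 TPM lay close together, and Itga8 at 6.32 and Itga2 at 3.54 TPM were lowest. Several neighbours in this order did not differ beyond their spread. Itgb1 was above Itga6, Itga6 above Itgb4 and Itgb6 above Itga8 in all 30 libraries, and Itga8 was above Itga2 in 28, whereas Itga5 was above Itgb6 in 17, Itga1 above Itga3 in 19, Itgav above Itga5 in 21 and Itgb4 above Itga1 in 23.

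**Figure D1:**
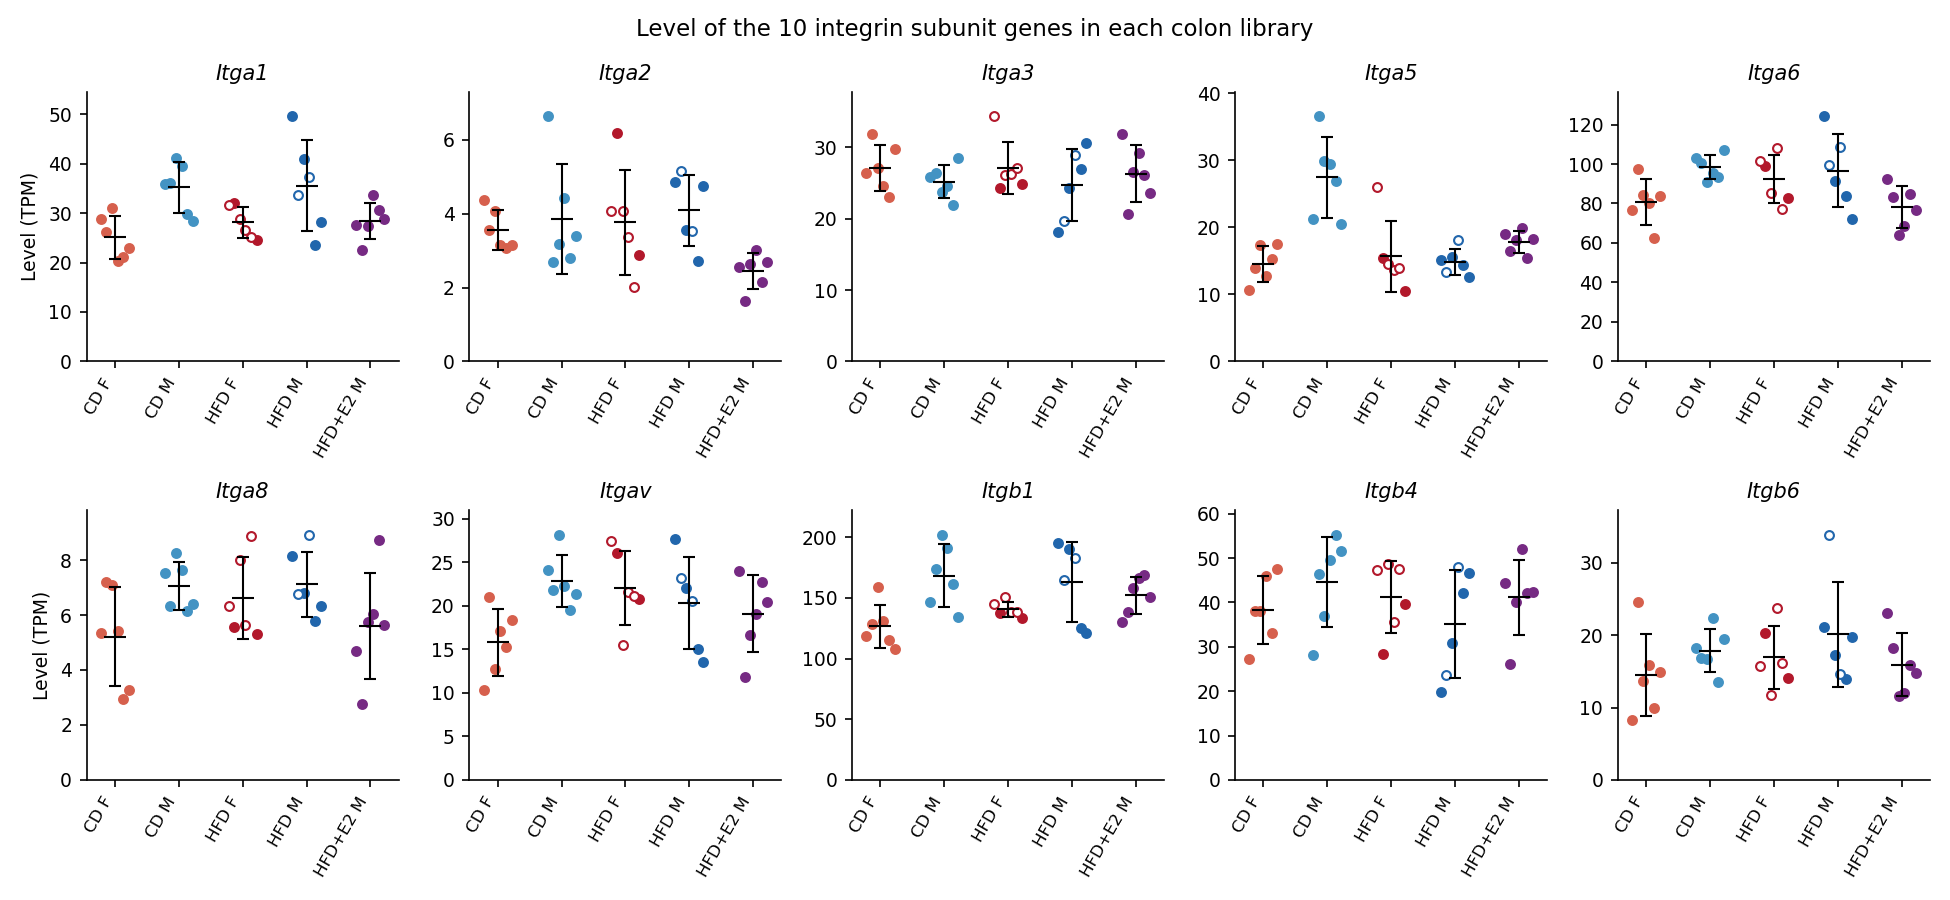
Level of each gene in TPM (vertical axes, starting at 0) in the 6 libraries of each group, with the mean and SD in black. Open points mark the 6 libraries with genes of stratified squamous epithelium. Itga5 in CD M, between 20.4 and 36.5 TPM, lies above every CD F and HFD M library, while the groups of the other 9 genes overlap in these comparisons.

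The genes lie on 5 chromosomes of the mouse genome (GRCm38, coordinates as the authors' files give them). Itga5 is at chr15:103344289-103366763 on the minus strand. Itga1 (chr13:114958079-115101964) and Itga2 (chr13:114835916-114932041), which encode the collagen-binding α subunits, both lie on the minus strand of chromosome 13. Chromosome 2 carries Itga6 (chr2:71745616-71858416) and Itgav (chr2:83724397-83806916) on the plus strand and Itga8 (chr2:12106632-12301922) and Itgb6 (chr2:60598292-60722643) on the minus strand. Itga3 (chr11:95044474-95076801, minus strand) and Itgb4 (chr11:115974709-116008412, plus strand) share chromosome 11, and Itgb1 is at chr8:128685654-128733200 on the plus strand. In the GENCODE vM21 annotation of this build 6 of the 10 genes, Itga5 among them, share no exonic base with another gene. Itga1 shares 3.68% of its exonic bases with Gm49395 on its own strand, and Itga8, Itgav and Itgb4 share 5.05%, 5.90% and 7.66% with a gene on the opposite strand, so that a small part of their counts is uncertain if strand was not used in counting.

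The letters upstream of the genes were read for Itga5, the member past a threshold between groups, and for Itga1 and Itgb1, the receptor partners with the highest correlation among libraries. RefSeq windows (GRCm38.p6) were at hand for 8 of the 10 genes. The 250 bases before each start are given 5′ to 3′ on the strand of the gene, in lower case with matches to the Sp1 motif GGGCGG on either strand in capitals.
Itga5 chr15:103366792-103367041, minus strand: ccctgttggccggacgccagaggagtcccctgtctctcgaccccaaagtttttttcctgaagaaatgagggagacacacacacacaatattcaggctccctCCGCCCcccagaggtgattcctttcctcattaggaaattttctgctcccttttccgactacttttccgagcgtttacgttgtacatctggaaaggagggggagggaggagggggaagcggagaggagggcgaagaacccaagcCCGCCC
Itga1 chr13:115101965-115102214, minus strand: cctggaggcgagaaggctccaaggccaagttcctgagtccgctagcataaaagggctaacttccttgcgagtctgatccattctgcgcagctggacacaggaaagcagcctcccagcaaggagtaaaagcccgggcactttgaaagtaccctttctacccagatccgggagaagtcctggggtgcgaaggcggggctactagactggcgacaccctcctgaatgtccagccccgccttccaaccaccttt
Itgb1 chr8:128685404-128685653, plus strand: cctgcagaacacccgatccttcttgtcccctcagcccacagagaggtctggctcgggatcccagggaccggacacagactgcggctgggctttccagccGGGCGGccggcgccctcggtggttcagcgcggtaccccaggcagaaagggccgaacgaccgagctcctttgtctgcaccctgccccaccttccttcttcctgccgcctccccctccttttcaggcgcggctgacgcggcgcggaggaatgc

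Itga5 held 2 Sp1 matches, Itgb1 held 1 and Itga1 none, and 32.7% of 32851 windows of this length held at least 1. No match was found in these 3 windows for the full palindromic estrogen response element (0.0639% of all windows), its half-site AGGTCA (14.02%), the AP-1 motif TGANTCA (6.75%), the E-box CACGTG (6.02%) or the CArG box of muscle genes (1.47%), each searched on both strands. A match is a description of the letters and not a bound site.

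In the comparison of the sexes on the control diet, Itga5, the fibronectin-binding α subunit, was lower in females. Its level ran from 10.7 to 17.6 TPM in CD F (median 14.5) and from 20.4 to 36.5 TPM in CD M (median 28.2). Every CD F library was below every CD M library on this scale, with a mean of 14.6 ± 2.68 TPM against 27.4 ± 5.99 TPM (SD, n = 6 each). On the CPM scale the groups met, since the highest CD F library (66.5 CPM) was above the lowest CD M library (63.5 CPM). Itga5 fell 1.70-fold in females relative to males (log2 fold change -0.77, SE 0.17, 95% interval -1.14 to -0.40, adjusted p = 0.0255 in edgeR's quasi-likelihood test with Benjamini-Hochberg adjustment over all genes). It was the 1 gene of the 10 past an adjusted p of 0.05, where 2.92% of all 14922 genes tested were, and also the 1 past the threshold of the study, an unadjusted p under 0.05 with a log2 fold change beyond 0.4 in either direction, where 9.15% of all genes were. On the CPM scale none of the 10 genes had groups without overlap, against 2.18% of all genes.

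**Figure D2:**
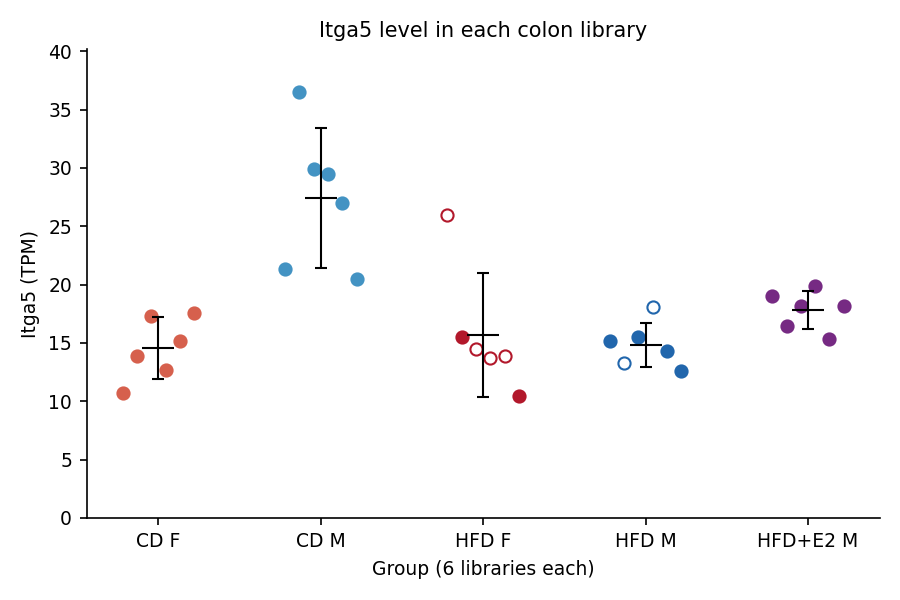
Itga5 level in TPM (vertical axis, starting at 0) in the 6 libraries of each group, with the mean and SD in black. Open points mark libraries with genes of stratified squamous epithelium. On this scale CD M stands above CD F, HFD M and HFD+E2 M, and the highest HFD F library, at 26.0 TPM, stands apart from the other 5.

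The call for Itga5 was lost without any 1 of 6 libraries. Its adjusted p in edgeR was between 0.0524 and 0.0681 without CD F replicate 2 or 4 or CD M replicate 2, 3, 4 or 5, each left out in turn, with a log2 fold change between -0.66 and -0.76, and it was 0.0501 with no filter on low counts. The smooth muscle genes moved with it: 7 of 12 were lower in CD F at an adjusted p under 0.05 and none was higher, and with the mean log2 CPM of these 12 genes as a covariate the Itga5 difference was -0.19 (SE 0.14, adjusted p = 0.495 in edgeR).

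The other 9 genes did not pass either threshold between CD F and CD M, and 7 of them had a negative log2 fold change. Itga1, the collagen-binding partner of β1, came closest, with 20.4 to 31.1 TPM in CD F (median 24.5), 28.5 to 41.2 TPM in CD M (median 36.0) and a log2 fold change of -0.38 (SE 0.10, adjusted p = 0.0554 in edgeR). It passed in DESeq2 (adjusted p = 0.0215), and in edgeR with no filter on low counts (adjusted p = 0.0351). Itgb1 lay between 108 and 159 TPM in CD F (median 124) and between 135 and 202 TPM in CD M (median 168), a log2 fold change of -0.27 (SE 0.10, adjusted p = 0.202 in edgeR). The laminin-binding subunit gene Itga6 had a log2 fold change of -0.20 (SE 0.075, adjusted p = 0.202 in edgeR), with overlapping levels of 62.4 to 97.6 and 90.7 to 107 TPM, and Itgav was at -0.20 (SE 0.087). The 5 remaining genes, Itga2, Itga3, Itga8, Itgb4 and Itgb6, were between -0.28 and 0.16, with 95% intervals that held 0. The median over the 10 genes was -0.20, beside 0.01 over all genes tested.

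Of 26 matrix ligands tested, 7 fell in CD F at an adjusted p under 0.05 and none rose, beside 2.92% of all genes past this threshold in either direction, with a median log2 fold change of -0.52 over the list. Fn1, which encodes fibronectin, the ligand of α5β1, ran from 85.2 to 124 TPM in CD F and from 139 to 232 TPM in CD M (log2 fold change -0.72, SE 0.18, adjusted p = 0.0413 in edgeR). Nid1, which links laminin to collagen IV in basement membranes, fell by 0.72 on the log2 scale (SE 0.10, adjusted p = 0.00106 in edgeR), and Tnc, the matrix protein tenascin C, by 0.71 (SE 0.18, adjusted p = 0.0410 in edgeR). Of 26 adaptors that join integrin tails to actin, 5 fell and none rose. These included Tns1 (tensin 1, -0.58), Lims2 (PINCH2, -0.55) and Ilk, the integrin-linked kinase (-0.54, SE 0.10, adjusted p = 0.00615 in edgeR). Among 14 other integrin subunit genes tested, 1 fell, Itga9 (-0.44, SE 0.11, adjusted p = 0.0464 in edgeR), and of 3 tested genes for hemidesmosome partners of α6β4 none passed. Of the marker genes, 2 of 9 of fibroblasts and 1 of 9 of endothelium fell as well, beside the 7 of 12 of smooth muscle. At the threshold of the study, passed by 9.15% of all genes, more were lower. These were 11 of 12 of smooth muscle, 4 of 9 of fibroblasts, 4 of 9 of endothelium and 3 of 8 of macrophages. They also held 2 of 3 of skeletal muscle, 2 of 9 of colon epithelium and 1 of 7 of enteric neurons and glia. Higher were 4 of 9 of B cells and follicles. The part of these marker genes in the lists was not tested.

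**Figure D3:**
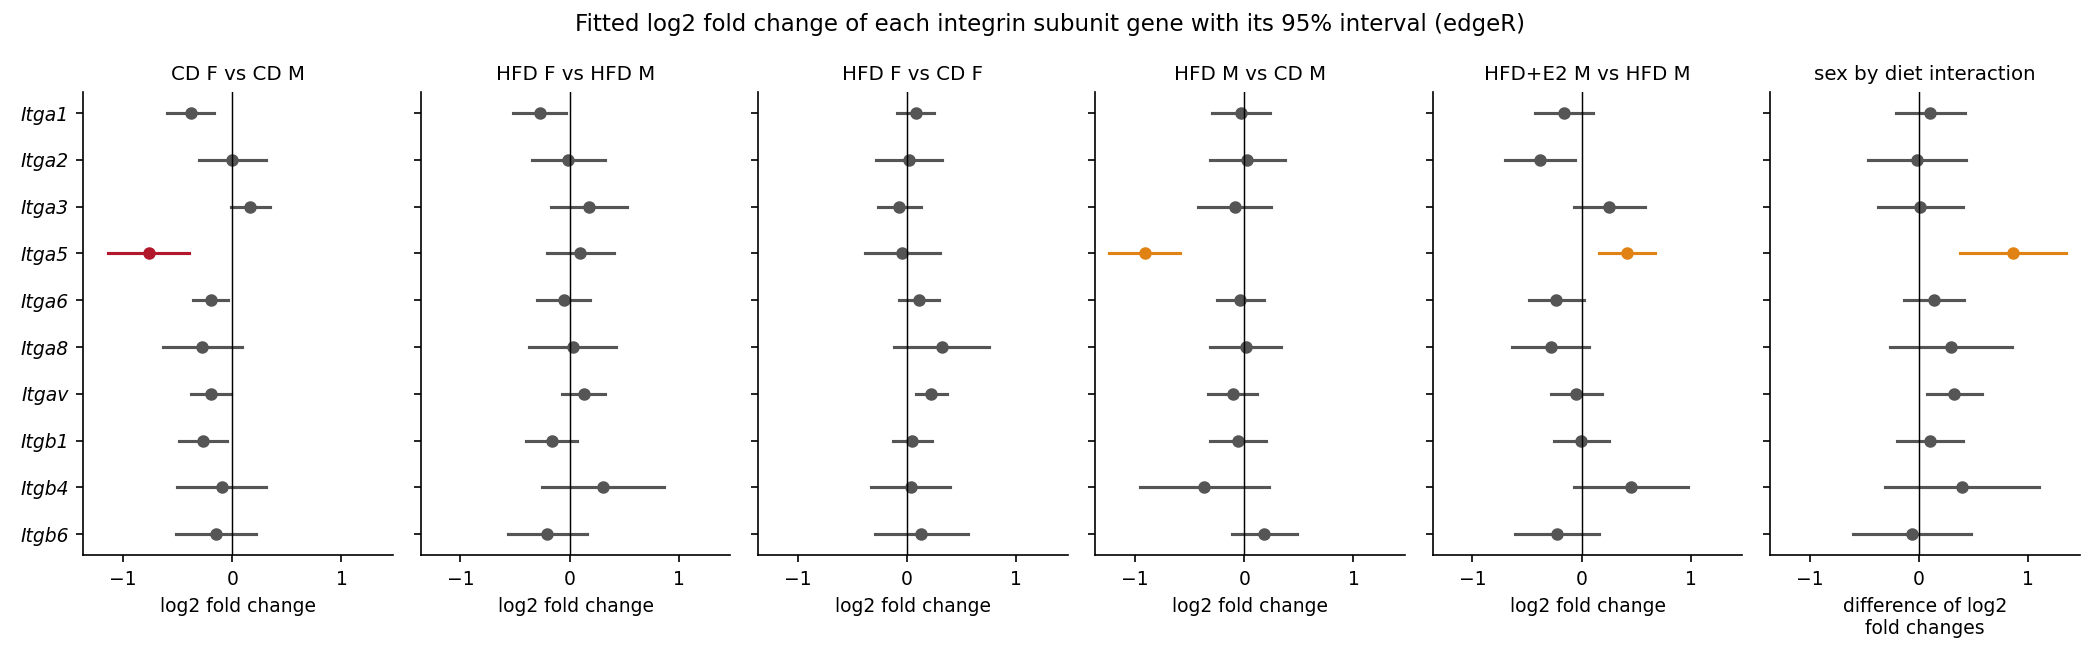
Log2 fold change of each gene (points) with its 95% interval (lines) from edgeR in 5 comparisons, and in the last panel the difference between the sexes in the log2 fold change from CD to HFD. Red marks an adjusted p under 0.05, orange the threshold of the study alone and grey neither. Itga5 is the gene in color in 4 panels, at -0.77, -0.91, 0.41 and 0.86.

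In males, Itga5 was lower on the high-fat diet. HFD M libraries had 12.6 to 18.04 TPM (median 14.7) against the 20.4 to 36.5 TPM of CD M, and no HFD M library reached the lowest CD M library, on the CPM scale as well. The log2 fold change was -0.91 (SE 0.15, 95% interval -1.23 to -0.58), which is 1.88-fold. It passed the threshold of the study but not the adjustment over all genes (unadjusted p = 1.99e-05, adjusted p = 0.149 in edgeR). No gene passed the adjusted threshold in edgeR here, 0% of the 14991 tested, while 904 had an unadjusted p under 0.05 and 26 passed in DESeq2, with Itga5 at an adjusted p = 0.00029 among them. Itga5 was the 1 gene of the 10 past the threshold of the study, beside 2.9% of all genes, and the 1 without overlap in CPM, beside 0.354%.

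The difference kept its direction in every fit, from -0.68 with the smooth muscle covariate (SE 0.10, adjusted p = 0.0445 in edgeR) to -0.999 without CD M replicate 1 (adjusted p = 0.0247 in edgeR). Without the 2 HFD M libraries that held squamous genes it was -0.96 (SE 0.18). The smooth muscle score was 8.46 to 9.35 in CD M (median 9.24) and 8.33 to 9.28 in HFD M (median 8.74), with overlapping groups. All 12 of its genes had a negative log2 fold change, from -0.46 to -0.075, and 1 of them passed the threshold of the study. The comparison shares its CD M libraries with that of the sexes on the control diet, so that the low values of CD F and HFD M are read against the same 6 animals.

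None of the other 9 genes passed a threshold between HFD M and CD M. Itgb4, the partner of α6 in hemidesmosomes, had 19.7 to 48.1 TPM in HFD M (median 36.5) against 28.1 to 55.2 TPM in CD M (median 48.0), with a log2 fold change of -0.37 (SE 0.27, adjusted p = 0.859 in edgeR). The remaining 8 lay between -0.11 for Itgav and 0.19 for Itgb6, and the median over the 10 genes was -0.046 beside -0.0067 over all genes. Among the ligands, 6 of 26 passed the threshold of the study, beside 2.9% of all genes, all lower in HFD M and none past the adjusted threshold. Thbs1, thrombospondin 1, was at -0.79 (SE 0.23), Col4a2, a collagen IV chain, at -0.59 (SE 0.26) and Fn1 at -0.54 (SE 0.14, adjusted p = 0.574 in edgeR). Of the adaptors 2 of 26 passed the threshold of the study, Tns1 at -0.43 and the actin crosslinker Actn4 at -0.41, and of 15 other subunits 1 did, Itgb3 at -0.52 (SE 0.15). Of the marker genes 1 of 5 of squamous epithelium was higher in HFD M at this threshold (Krt10 at 4.67). Lower were 1 of 9 of colon epithelium (Car1 at -1.05) and 1 of 12 of smooth muscle, and the part of these marker genes in the list values was not tested.

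In females, no difference in Itga5 with diet passed a threshold. HFD F libraries had 10.4 to 26.0 TPM (median 14.2) and CD F libraries 10.7 to 17.6 TPM (median 14.5), and the groups overlapped throughout. The log2 fold change was -0.044 (SE 0.16, 95% interval -0.39 to 0.30, adjusted p = 0.999 in edgeR), an interval that does not reach the -0.91 fitted in males. The highest value, 26.0 TPM, came from HFD F replicate 1, a library with squamous and skeletal muscle genes, and without the 4 HFD F libraries that held squamous genes the difference was -0.28 (SE 0.21).

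No gene of the 10 passed either threshold between HFD F and CD F, where 0.0199% of 15061 genes passed the adjusted threshold and 3.67% that of the study. Itgav, the α subunit that binds vitronectin and, with β6, the latent form of TGFβ, was nearest. Its normalised level was 104 to 119 CPM in HFD F and 86.7 to 99.6 CPM in CD F, so that it was the 1 gene of the 10 whose groups did not overlap on the CPM scale, beside 0.212% of all genes. On the TPM scale the groups did overlap, at 15.5 to 27.4 and 10.3 to 21.0 TPM. The log2 fold change was 0.22 (SE 0.068, unadjusted p = 0.00473, adjusted p = 0.523 in edgeR), and the adjusted p was 0.0490 in DESeq2. Itga8, the nephronectin-binding subunit, had the largest fitted value with a wide interval (0.32, SE 0.20, 95% interval -0.12 to 0.75), and the other 7 genes lay between -0.070 and 0.13. The median over the 10 genes was 0.065 beside 0.0012 over all genes. Of the ligands 4 of 25 were higher and 1 lower at the threshold of the study, led by Col1a1, a collagen I chain (0.78, SE 0.29), and the laminin chain Lama1 (0.74, SE 0.26). Lama1 had a low level, with a mean of 0.14 TPM in CD F and 0.36 TPM in HFD F. Of 15 other subunits 2 were higher, Itgam (0.49) among them, and Itgb8 (-0.50) was the 1 lower, while none of the adaptors passed. Higher in HFD F at the same threshold were also 5 of 6 tested genes of squamous epithelium (Krt14 at 6.99), 2 of 3 of skeletal muscle (Acta1 at 3.06) and 1 of 9 of fibroblasts (Col6a1 at 0.41), and their part in the list values was not tested.

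On the high-fat diet, the Itga5 levels of the sexes overlapped, with medians of 14.2 TPM in HFD F and 14.7 TPM in HFD M. The log2 fold change was 0.097 (SE 0.14, 95% interval -0.21 to 0.40, adjusted p = 0.915 in edgeR), and it was -0.042 without HFD F replicate 1. None of the 10 genes passed a threshold, where 0.0988% of 15179 genes passed the adjusted threshold and 3.09% that of the study, and none had groups apart in CPM, beside 0.362% of all genes. Itga1, the member with the lowest fitted value here, had 24.6 to 32.01 TPM in HFD F (median 27.7) against 23.6 to 49.5 TPM in HFD M (median 35.5), with a log2 fold change of -0.27 (SE 0.11, adjusted p = 0.872 in edgeR). Itgb4 was at 0.30 (SE 0.26), and the other 7 genes were between -0.21 and 0.18. The median over the 10 genes was 0.0069 beside 0.0059 over all genes. Nid1 was the 1 ligand of 26 past the threshold of the study (-0.44, SE 0.086, adjusted p = 0.0972 in edgeR), and Itgal and Itgae, α subunits of lymphocyte integrins, were the 2 of 15 other subunits (0.68 and 0.56, both higher in females). The levels of Itgal and Itgae were low, with means of 0.77 and 1.33 TPM in HFD F and 0.35 and 0.72 TPM in HFD M. Fermt3, an adaptor of blood cells, was the 1 of 26 adaptors (0.64). Of the marker genes 3 of 19 of squamous epithelium and 1 of 9 of fibroblasts were higher in HFD F at this threshold and 1 of 12 of smooth muscle and 1 of 9 of endothelium lower, and their part in these values was not tested.

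Whether females and males differed in the effect of diet was tested as an interaction on the 24 vehicle libraries. Itga5 had the largest value of the 10, a log2 difference of 0.86 (SE 0.23, 95% interval 0.38 to 1.34), where the difference with diet was -0.91 in males and -0.044 in females. It passed the threshold of the study (unadjusted p = 0.00111) but not the adjustment (adjusted p = 0.410 in edgeR). No gene passed the adjusted threshold (0% of 15800), with 1066 genes at an unadjusted p under 0.05 and 7 genes past it in DESeq2, where Itga5 had an adjusted p of 0.169. It was the 1 gene of the 10 past the threshold of the study, beside 5.18% of all genes. Its value was 0.56 with the smooth muscle covariate and 0.66 without the 6 libraries that held squamous genes, and no fit gave it an adjusted p under 0.05. Itgav followed at 0.32 (SE 0.12, adjusted p = 0.655 in edgeR), and the 95% intervals of the other 8 held 0. The median over the 10 genes was 0.12 beside 0.0074 over all genes. Of 15 other subunits Itgam was the 1 higher (0.76, SE 0.20) and Itgb8 the 1 lower (-0.69, SE 0.30) at the threshold of the study. Ligands (9 of 26) and adaptors (3 of 26) passed the threshold of the study in the same direction and none in the other, with Col1a1 at 1.31 (SE 0.46), Col1a2 at 0.94 (SE 0.25), Tns1 at 0.70 (SE 0.24) and Actn1, α-actinin 1, at 0.50 (SE 0.14). Smooth muscle genes (3 of 12) and fibroblast genes (3 of 9) did so as well, and their part in these values was not tested.

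With E2, Itga5 was higher than in HFD M. HFD+E2 M libraries had 15.4 to 19.8 TPM (median 18.2) and HFD M libraries 12.6 to 18.04 TPM (median 14.7). The groups overlapped, and on the TPM scale every HFD+E2 M library was below the lowest CD M library, at 20.4 TPM. On the CPM scale HFD+E2 M and CD M overlapped, with HFD+E2 M at 51.5 to 73.1 CPM and the lowest CD M library at 63.5 CPM. The log2 fold change was 0.41 (SE 0.12, 95% interval 0.16 to 0.67), or 1.33-fold, just past the threshold of the study (unadjusted p = 0.00341) and not past the adjusted threshold (adjusted p = 0.454 in edgeR). It was the 1 gene of the 10 past the threshold of the study, beside 5.87% of 15010 genes, and 0.00666% passed the adjusted threshold. None of the 10 had groups apart in CPM, beside 0.413% of all genes. The value was under 0.4 with the smooth muscle covariate (0.31), on the log2(TPM + 0.1) scale (0.27, where the median of all genes was -0.16) and without any 1 of 6 libraries (0.37 to 0.397), namely HFD M replicate 1, 2 or 6 or HFD+E2 M replicate 2, 3 or 4. The comparison shares its HFD M libraries with that of diet in males, and its log2 fold change of 0.41 stands beside the -0.91 there.

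Other members had fitted values of similar size with E2 and did not pass in the reported fit. Itga2, the collagen-binding subunit with the lowest level, ran from 1.65 to 3.02 TPM in HFD+E2 M (median 2.602) and from 2.71 to 5.16 TPM in HFD M (median 4.16), with overlapping groups and a log2 fold change of -0.38 (SE 0.15, adjusted p = 0.461 in edgeR). Itga2 passed the threshold of the study on the log2(TPM + 0.1) and log2(TPM + 1) scales in limma (-0.71 and -0.55). It also passed in edgeR without HFD M replicate 3, 4 or 5 or HFD+E2 M replicate 2 or 6 (-0.40 to -0.47). Itgb4 was at 0.46 (SE 0.24, adjusted p = 0.508 in edgeR) and Itga3, the laminin-binding α subunit of epithelia, at 0.26 (SE 0.15). Itgb4 passed the threshold of the study with all 30 libraries in one fit (0.46) and with a block on replicate number (0.55). It also passed without HFD M replicate 5 (0.58) or 6 (0.55). The other 6 genes had values between -0.28 for Itga8 and -0.0020 for Itgb1, and the median over the 10 was -0.10 beside 0.0011 over all genes. Fn1 (0.50, SE 0.13, adjusted p = 0.429 in edgeR) and Thbs1 (0.51, SE 0.13) were the 2 of 26 ligands past the threshold of the study, beside 5.87% of all genes. Of 15 other subunits 4 were higher, with Itga11 at 0.68 (SE 0.22), and 1 was lower, Itgb8 at -0.59 (SE 0.19), and Actn4 at 0.45 (SE 0.13) was the 1 of 26 adaptors. At the same threshold 3 of 5 tested genes of squamous epithelium, 2 of 3 of skeletal muscle, 1 of 9 of colon epithelium and 1 of 7 of enteric neurons and glia were lower with E2. Of fibroblast genes 2 of 9, of macrophage genes 2 of 8, of endothelial genes 1 of 9 and of smooth muscle genes 1 of 12 were higher, and their part in these values was not tested.

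Over the 30 libraries Itga5 varied more between groups than the other members. Differences between group means took up 59.8% of the variance of its log2 CPM, 44.4% of that of Itga1 and 12.4% to 31.1% of that of the other 8. Itgb4 had the widest spread overall (SD 0.44 in log2 CPM) and 17.96% of its variance between groups, so that its spread lay mainly among libraries of the same group. Itgav had the narrowest (SD 0.16).

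Subunits that form a receptor together did not all move together. The correlations here are over 30 libraries that share groups, depth and tissue makeup, and are given as a description. Itga1 and Itgb1, which form the collagen receptor α1β1, had Pearson r = 0.81 (Spearman rho = 0.80), and r = 0.74 with values centred on group means. Itga5 and Itgb1, the fibronectin receptor α5β1, had r = 0.49, and Itga8 and Itgb1 r = 0.43. For Itgav and Itgb6 r was 0.29, and for the hemidesmosome pair Itga6 and Itgb4 it was -0.39 (rho = -0.22), so that the partners did not rise and fall as 1 unit in these mRNA levels. The highest r of all 45 pairs joined Itga3 and Itgb4, which do not form a receptor, at 0.83 (rho = 0.59), and without the 2 libraries farthest from the median of Itga3 it was 0.60. Itga6 and Itgb6 had r = 0.60, and Itga1 and Itga3 r = -0.54.

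**Figure D4:**
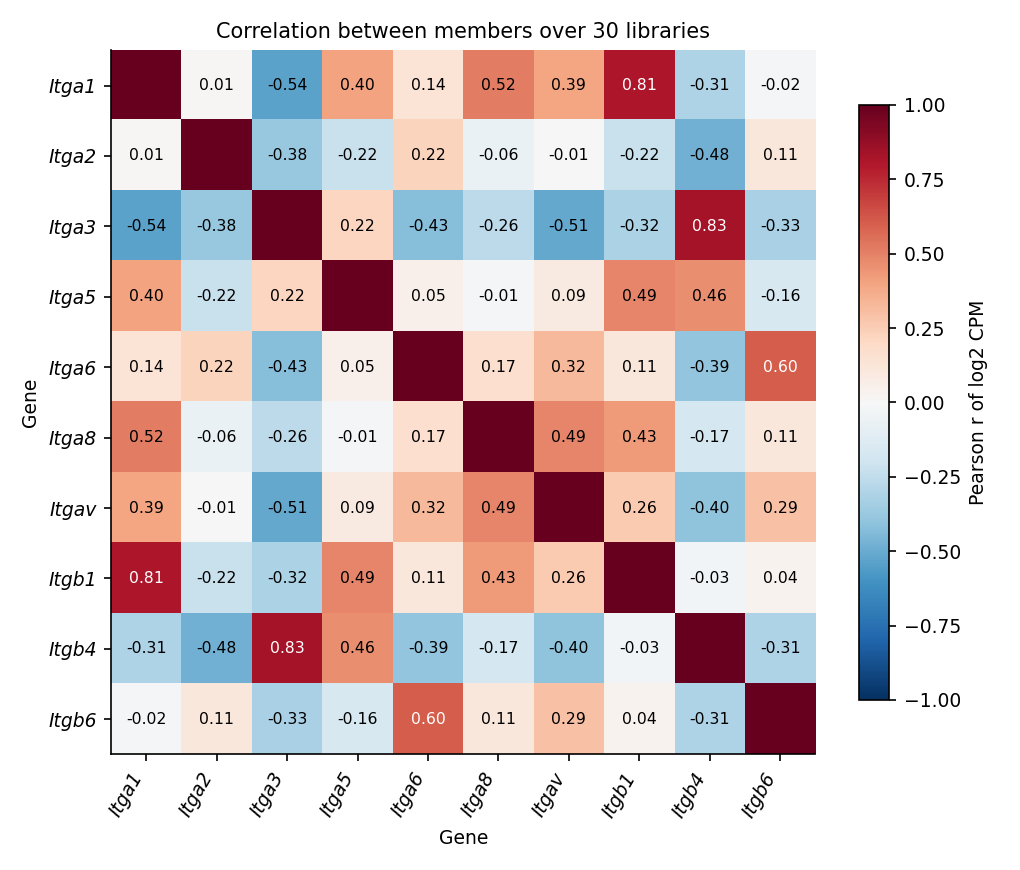
Pearson r of log2 CPM between each pair of the 10 genes over 30 libraries, from -1 (blue) to 1 (red), with r written in each cell. The highest values are 0.83 for Itga3 with Itgb4 and 0.81 for Itga1 with Itgb1, while Itga6 with Itgb4 is at -0.39.

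The genes whose log2 CPM was most like that of Itga5, among 14913 genes with a mean of at least 1 CPM, were Lamc1, the laminin γ1 chain (r = 0.78), Actn1 (r = 0.77), Hspb7, a small heat shock protein of muscle (r = 0.76), Ehd2 (r = 0.75) and the muscle filamin Flnc (r = 0.74). Centred on group means these were 0.58 to 0.75. Itga1 was most like Dmd, which encodes dystrophin (r = 0.88), and Pde5a (r = 0.87). Itgb1 was most like Slmap (r = 0.94), and Itga8 most like Pln, phospholamban (r = 0.74). Itgb4 was most like Kdm4b (r = 0.96) and Plec, which encodes plectin, the protein that ties α6β4 to keratin (r = 0.95), and Itga3 was most like Plxnb2 (r = 0.94) and the kinase gene Src (r = 0.93). Itga2 was closest to Ccnb2, a mitotic cyclin (r = 0.74), Itga6 to Nipal1 (r = 0.76), Itgav to Cd109 (r = 0.77) and Itgb6 to Ccng2 (r = 0.76).

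Against marker lists of 10 cell types, 4 members had r over 0.5 with the smooth muscle score, namely Itgb1 (0.70), Itga5 (0.69), Itgb4 (0.57) and Itga1 (0.55). For Itga5 it was 0.67 with values centred on group means and 0.65 without the 2 libraries farthest from the median of the score. Its r with the score of fibroblasts was 0.50, and 0.44 centred on group means. The sign was also kept with the scores of enteric neurons and glia (0.42, centred 0.47) and skeletal muscle (0.23, centred 0.31). It was kept as well with that of B cells and follicles (-0.43, centred -0.41). With the remaining scores the sign changed on centring. The r of Itga5 was 0.17 and centred -0.31 for colon epithelium, 0.24 and centred -0.086 for endothelium, and -0.20 and centred 0.11 for adipocytes. For macrophages it was 0.23 and centred -0.0065, and for squamous epithelium -0.17 and centred 0.18. The lowest r of any member with a marker score was that of Itga8 with the genes of B cells and follicles (-0.62), which in summed level ran from 0.153 to 70.1 TPM among the HFD M libraries alone.

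**Figure D5:**
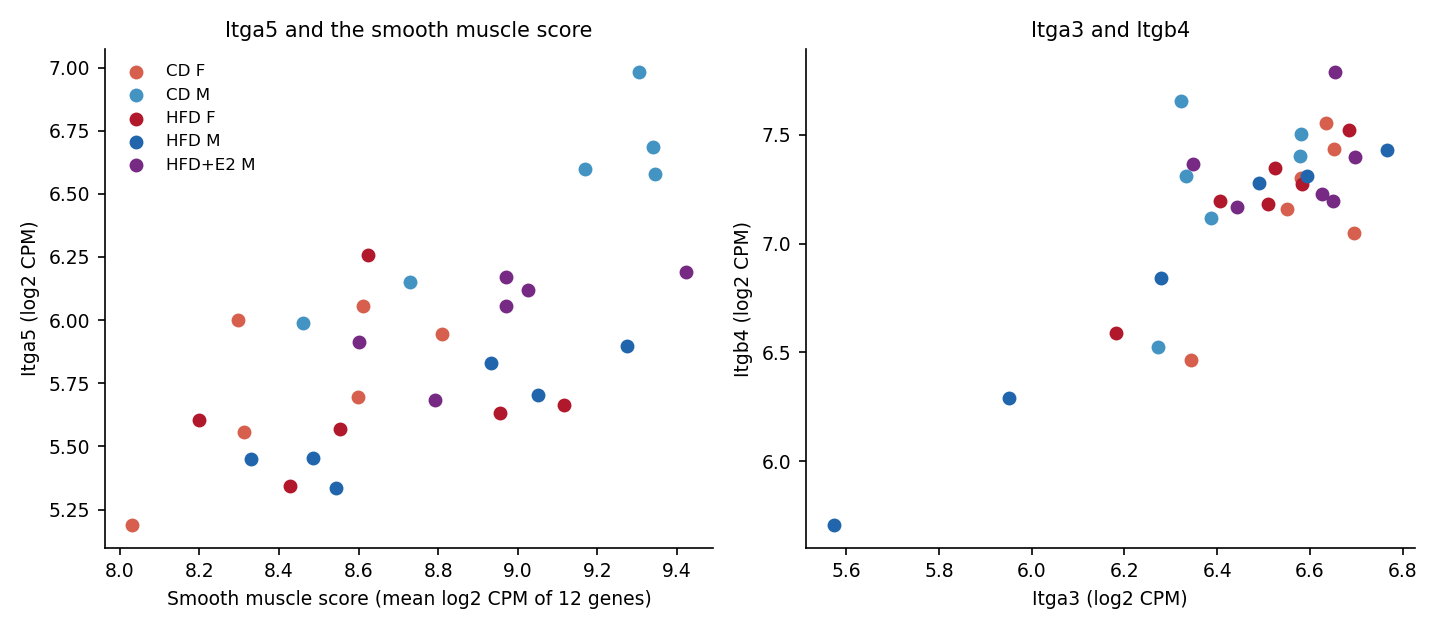
Left, Itga5 in log2 CPM against the smooth muscle score, the mean log2 CPM of 12 genes; right, Itgb4 against Itga3 in log2 CPM; each point is 1 of 30 libraries, colored by group. On the left r is 0.69, with HFD M below CD M at like scores, and on the right r is 0.83, which falls to 0.60 without the 2 libraries farthest from the median of Itga3.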

How the data were processed

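RNA from snap-frozen colon was made into ribosome-depleted TruSeq stranded libraries, and the authors mapped the reads to mm10 (GRCm38) with STAR and counted them per gene with featureCounts; the submitters' processing notes also name bcl2fastq 2.19.1.403, CASAVA, Trim Galore and StringTie. The deposited counts are whole reads per gene, unnormalized, and whether the counting used strand is not given in the sources used here. The deposited TPM values are the authors' StringTie estimates per gene and library, summed here where a gene ID was repeated; the FPKM and coverage columns were not used. Counts correlated best with the TPM of the same library in 30 of 30 libraries.

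Each comparison was fitted on its 12 libraries (24 for the interaction) with edgeR 4.0.16 in R 4.3.3 (genes kept by filterByExpr, TMM scaling, robust quasi-likelihood F-test, Benjamini-Hochberg adjustment over all genes kept). Standard errors are the log2 fold change over the root of F, and intervals are 95%. The threshold of the study is an unadjusted p under 0.05 with a log2 fold change beyond 0.4; whether its p was adjusted is not given in the sources used here. CPM are TMM-scaled with a prior count of 2. A score of a cell type is the mean log2 CPM of its marker genes with a mean over 0.1 CPM. Alternatives were DESeq2 1.42.0, DESeq2 size factors, no filter on low counts, a joint fit of all 30 libraries, a block on replicate number, the squamous or smooth muscle score as a covariate, log2(TPM + 0.1) and log2(TPM + 1) in limma 3.58.1, each library left out, and, chosen after seeing the data, the 6 libraries with squamous genes left out. Named genes were all 10 members, from each list up to 3 with the largest change past the adjusted threshold or else up to 2 past that of the study, and the genes most like a member by Pearson r, 5 for Itga5 and 2 for the others; Fn1 was also followed where it fell outside this rule, after its values were seen. The members and lists were chosen with earlier results of these data known. The edgeR script was tested on simulated counts.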

Additional observations from a re-analysis of the deposited data

Results flagged for a closer look

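A library was counted as standing apart where its gap to the nearest library of its group was over 0.625 of the range of the 6 (Dixon's 95% critical value), which chance gives in about 1 of 20 groups. Of 50 sets of 6 TPM values, 3 held such a library. In HFD F replicate 1 both Itga3, at 34.3 TPM, and Itga5, at 26.0 TPM, stood above the other 5 libraries (gap over range 0.721 and 0.676). In HFD M replicate 2 Itgb6, at 33.8 TPM, stood above the others (0.634). Both libraries held genes of stratified squamous epithelium (scores 5.43 and 4.69). Without HFD F replicate 1 the Itga5 difference between HFD F and HFD M was -0.042 in place of 0.097.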

How the results depend on the processing

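The lower Itga5 levels in CD F and HFD M than in CD M and its higher level with E2 kept their direction in every fit. The count of the 10 genes past the adjusted threshold between CD F and CD M was 1 and became 2 in DESeq2 and with all 30 libraries in one fit, 3 with the replicate block (Itga5, Itga1 and Itgb1) and 0 with the smooth muscle score, and 0 to 2 without 1 library; with no filter on low counts it was 1, Itga1 in place of Itga5. At the threshold of the study it was 0 with the smooth muscle score, 5 on both log2 TPM scales and 1 to 2 without 1 library. For HFD M against CD M the adjusted count was 1 in place of 0 in DESeq2, with all 30 libraries, with the replicate block and with the smooth muscle score, and 0 to 1 without 1 library, and the count at the threshold of the study was 2 with the block. For HFD F against CD F DESeq2 gave 1 (Itgav), and both TPM scales gave 1 at the threshold of the study. For HFD+E2 M against HFD M the count at the threshold of the study was 2 with all 30 libraries and with the block, 0 with the smooth muscle score and 0 to 3 without 1 library, and for the interaction it was 2 on both TPM scales. The replicate numbers are not known to pair animals: same-numbered libraries of 2 groups correlated at over 0.1 in 3 to 5 of 6 pairs. For CD F against CD M, HFD M against CD M and HFD+E2 M against HFD M, 4 of 6 libraries correlated best with their own number. It was 1 of 6 for HFD F against HFD M and 0 of 6 for HFD F against CD F. The cause of the changes in the counts of genes was not tested.

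On the log2(TPM + 0.1) scale the median of all genes was -0.10 for CD F against CD M and -0.16 for HFD+E2 M against HFD M (-0.11 on the log2(TPM + 1) scale). All genes past the adjusted threshold numbered 435 for CD F against CD M and 135 to 941 in the other fits, 15 (8 to 50) for HFD F against HFD M, 3 (1 to 214) for HFD F against CD F, 0 (0 to 26) for HFD M against CD M, 1 (0 to 38) for HFD+E2 M against HFD M and 0 (0 to 7) for the interaction. At the threshold of the study they numbered 1366 (1349 to 2253), 469 (337 to 1165), 553 (328 to 1496), 434 (319 to 1056), 881 (481 to 1853) and 818 (332 to 1543) in this order. Among pairs of members, Itga3 with Itgb4 was the 1 correlation outside its 95% interval, at 0.60 without 2 libraries. Some correlations with marker scores changed sign when centred on group means, as that of Itga5 with colon epithelium did (0.17 to -0.31).

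Of 60 member differences 25 changed sign in some fit; none of these was past a threshold in the reported fit, where the largest was 0.30 in size and the lowest adjusted p in edgeR was 0.202. With the smooth muscle score, Itga2 was -0.22, Itgb1 0.063 and Itgb4 0.32 for CD F against CD M, Itgb1 -0.00029 and Itgb4 -0.14 for HFD F against CD F, Itga1 0.037, Itga2 -0.11 and Itgb1 0.047 for HFD M against CD M, Itgav 0.00032 for E2, and Itga2 0.17, Itga3 -0.15, Itgb1 -0.049 and Itgb6 0.082 for the interaction. With the squamous score, Itga2 was -0.064 for CD F against CD M, Itga5 -0.013 and Itga8 -0.10 for HFD F against HFD M, Itgb4 -0.20 for HFD F against CD F, Itga2 -0.0079 and Itga8 -0.087 for HFD M against CD M and Itgb1 0.029 for E2. Without the libraries that held squamous genes, Itga2 was 0.18, Itga3 -0.011, Itga5 -0.11, Itga8 -0.066 and Itgb4 -0.042 for HFD F against HFD M, Itgb4 -0.28 for HFD F against CD F, Itga2 -0.030 and Itga8 -0.17 for HFD M against CD M, Itgb1 0.051 for E2, and Itga2 0.19, Itga3 -0.17 and Itgb6 0.13 for the interaction. On the log2(TPM + 0.1) and log2(TPM + 1) scales, Itga2 was -0.050 and -0.048 for CD F against CD M, Itga8 -0.12 and -0.10 for HFD F against HFD M, Itga3 0.0028 and 0.0027 and Itga5 0.068 and 0.065 for HFD F against CD F, and Itgb6 0.15 and 0.14 for the interaction. With no filter on low counts Itga2 was -0.011 for CD F against CD M and -0.00062 for HFD F against CD F. With the replicate block Itga2 was -0.0056 for HFD F against CD F, Itga8 -0.0087 for HFD M against CD M and Itgb1 0.0091 for E2, where Itgb1 was also 0.0051 in DESeq2, 0.0045 with its size factors and 0.0063 with all 30 libraries.

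Without 1 library, Itga2 ranged from -0.055 to 0.14 and Itgb4 from -0.22 to 0.011 for CD F against CD M. For HFD F against HFD M Itga2 ranged from -0.14 to 0.049, Itga5 from -0.042 to 0.16 and Itga8 from -0.13 to 0.15. For HFD F against CD F Itga2 ranged from -0.11 to 0.074, Itga5 from -0.18 to 0.018 and Itgb4 from -0.079 to 0.13. For HFD M against CD M Itga1 ranged from -0.10 to 0.031, Itga2 from -0.036 to 0.18, Itga3 from -0.20 to 0.023, Itga6 from -0.084 to 0.027, Itga8 from -0.12 to 0.10 and Itgb1 from -0.11 to 0.016. For E2 Itgav ranged from -0.10 to 0.0020 and Itgb1 from -0.065 to 0.059, and for the interaction Itga2 ranged from -0.17 to 0.046, Itga3 from -0.10 to 0.12 and Itgb6 from -0.17 to 0.14.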
